A study of Homo sapiens with 23 samples.

Results

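Overexpression of the transcription factor ONECUT2 (OC2) took 92 genes that were near 0 in LNCaP prostate cancer cells to at least 5 CPM. They are described here across all 9 groups of the series. A gene was included when it had less than 0.5 CPM in each of the 2 control, 2 shCon and 2 shOC2 libraries of LNCaP and at least 5 CPM in both OC2-overexpressing libraries. CPM is the count of a gene divided by the total of its library, times 1000000, and is not scaled for gene length. Of 60683 genes in the LNCaP table, 42760 were below 0.5 CPM in all 6 libraries, and 117 of these (0.274%) reached 5 CPM in both overexpression libraries. Genes whose mean of CPM + 0.5 at least doubled with OC2 in a second line, LAPC4 (ratio of 2 or more), were then left out. This removed 25 genes and left 92, of which 1 had no row in the LAPC4 table. The genes were thus chosen by their measured levels in LNCaP and by their ratio in LAPC4, and these values are given below as description, without a test.

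The series holds 23 libraries of 2 human prostate cancer cell lines, both of which depend on androgen. LNCaP, from a lymph node metastasis, was studied as untreated control (2 libraries), with OC2 overexpressed (2), with a control hairpin, shCon (2), and with a hairpin against OC2, shOC2 (2). LAPC4 carried an empty vector (3) or OC2 (3) and was grown with the synthetic androgen R1881. In a separate experiment LNCaP received for 7 days vehicle (3), enzalutamide at 10 µM (3), or enzalutamide at 10 µM with an unnamed OC2 inhibitor at 10 µM (3). The labels do not say whether the modified lines are pools or clones, nor whether libraries of a group come from separate cultures, so p-values here measure only the spread between these libraries. Library totals ran from 20964025 to 30465978 counts.

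ONECUT2 belongs to the CUT-homeodomain family, whose members act in the development of liver, pancreas, retina and motor neurons. In prostate cancer it has been studied as a driver of tumours that no longer depend on the androgen receptor, some of which take on neuroendocrine features. Genes of neurons are held silent in epithelial cells in part by the repressor REST, which binds the RE1 element. SRRM4, a splicing factor of neurons, is known to switch REST to a shorter form with less repressor activity. Cancer-testis genes, which are normally expressed in germ cells, are held silent in other tissues largely by DNA methylation.

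The promoters of the genes were read for the letters of these factors. RefSeq promoters on GRCh38.p14, 250 bases before to 50 bases after the gene start, were at hand for 57 of the 92 genes and for 27305 genes in all. The core read by ONECUT factors, ATTGAT or ATCGAT on either strand, was in 0 of the 57 promoters and in 7.12% of all promoters. In the 250 bases before the start alone it was in 0 of the 57 and in 6.33% of all. Protein-coding genes alone gave 0 of 55 in both windows, beside 5.33% and 4.79% of 15843 promoters. A part of the RE1 element, CAGCACC or GGACAGC on either strand, was in 6 of the 57 (10.5%) and in 12.9% of all promoters. For protein-coding genes alone these shares were 10.9% and 13.7%. A match is a description of letters in this window, and the absence of one draws nothing about binding elsewhere. The genes with an RE1 part were SRRM4, SCG3, SYN1, ACTL6B, PAK6 and PCDHAC2, and 4 of these, all of neuronal function, are printed here to show where the letters lie.

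The capitals mark RE1 letters on either strand. The promoters lie at chr12:118981291-118981590 (plus strand) for SRRM4, chr15:51681253-51681552 (plus) for SCG3, chrX:47619808-47620107 (minus) for SYN1 and chr7:100656399-100656698 (minus) for ACTL6B, each written 5′ to 3′ in the direction of the gene.
SRRM4: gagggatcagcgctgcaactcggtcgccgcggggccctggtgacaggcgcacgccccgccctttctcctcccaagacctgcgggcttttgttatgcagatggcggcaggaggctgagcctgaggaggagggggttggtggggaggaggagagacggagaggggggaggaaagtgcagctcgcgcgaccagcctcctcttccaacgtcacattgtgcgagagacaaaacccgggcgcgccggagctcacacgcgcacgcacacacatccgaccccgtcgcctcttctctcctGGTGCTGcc
SCG3: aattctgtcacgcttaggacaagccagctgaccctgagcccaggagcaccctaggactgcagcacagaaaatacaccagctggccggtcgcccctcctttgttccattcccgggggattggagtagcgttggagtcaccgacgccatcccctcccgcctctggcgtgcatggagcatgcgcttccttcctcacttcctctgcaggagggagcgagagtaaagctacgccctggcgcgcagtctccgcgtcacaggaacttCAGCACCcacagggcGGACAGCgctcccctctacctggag
SYN1: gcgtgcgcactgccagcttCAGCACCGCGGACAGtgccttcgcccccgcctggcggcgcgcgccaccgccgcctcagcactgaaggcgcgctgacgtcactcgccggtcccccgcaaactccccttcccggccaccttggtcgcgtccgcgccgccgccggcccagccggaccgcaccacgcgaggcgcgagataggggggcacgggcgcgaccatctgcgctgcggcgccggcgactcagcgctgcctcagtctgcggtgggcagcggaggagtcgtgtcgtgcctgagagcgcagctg
ACTL6B: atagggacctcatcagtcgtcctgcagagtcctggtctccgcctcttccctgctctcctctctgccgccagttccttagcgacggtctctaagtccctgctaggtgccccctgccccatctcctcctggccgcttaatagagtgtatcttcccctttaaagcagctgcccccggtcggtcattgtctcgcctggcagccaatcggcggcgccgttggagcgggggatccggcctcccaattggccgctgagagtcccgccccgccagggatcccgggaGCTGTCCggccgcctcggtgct
In SRRM4 the part CAGCACC began at base 42 after the start, on the other strand. In SCG3 both parts were present on the same strand, at bases 11 and 26, with a gap of 8 bases between them. In SYN1 the part CAGCACC began at base -231, counted back from the start, and was followed, across 2 bases, by GGACAG, which lacks only the last letter of the right part. The full joined form, CAGCACC followed after any 2 bases by GGACAGC on either strand, was in 0 of the 57 promoters and in 0.044% of all. The form without the last letter was searched for after the SYN1 sequence had been seen. It was in 1 of the 57 promoters and in 0.0513% of all. The 1 is SYN1 itself, so this share says nothing about the 57. In ACTL6B the right part GGACAGC began at base 29, on the other strand. REST itself stood at 35.8 and 37.2 CPM in control and at 33.0 and 35.3 CPM with OC2, a small difference. It was at 42.6 and 44.8 CPM in shCon and at 61.6 and 59.6 in shOC2. In LAPC4 it was at 54.0, 57.1 and 60.9 CPM with the vector and at 53.2, 57.4 and 56.5 with OC2, which overlap. In the drug experiment it was at 47.6, 51.9 and 46.7 CPM in vehicle, 93.2, 82.6 and 73.05 with enzalutamide and 67.0, 71.7 and 64.4 with the combination.

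Base composition was also read. The ratio of observed to expected CpG was at least 0.6 in 37 of the 57 promoters (64.9%) and in 49.0% of all promoters. Among protein-coding genes alone the shares were 65.5% of 55 and 65.8% of 15843, so the genes did not stand apart in CpG content once noncoding genes were left out of the comparison. The box TATAAA was in 3 of the 57 (5.26%) and in 11.95% of all promoters. For protein-coding genes alone it was in 3 of 55 (5.5%) and in 9.63%. The exon length of the protein-coding genes had a median of 4494 bases, against 4223 over the 19910 protein-coding genes annotated.

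ONECUT2 was first followed in every library. It stood at 23.4 and 29.6 CPM in LNCaP control, 21.9 and 22.6 in shCon, 12.6 and 12.6 in shOC2 and 313 and 288 with overexpression. In LAPC4 it stood at 13.6, 17.2 and 15.6 CPM with the vector and at 963, 814 and 913 with OC2. The groups did not overlap in either line, as their labels require. The hairpin libraries had the lowest level of the LNCaP overexpression and hairpin set, and the 92 genes were below the 0.5 CPM limit both there and in shCon.

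Summed over the 92 genes, the 6 silent LNCaP libraries held between 5.93 and 8.58 CPM, and the OC2 libraries held 1314 and 1360 CPM. The median of the 92 means with OC2 was 10.1 CPM, with 47 genes at 10 CPM or more and 16 at 20 or more. The replicates were close to each other: the ratio of the first to the second OC2 library ran from 0.658 to 1.68, and 73 of the 92 were within 1.2-fold. Of the 92 genes, 5 (SLC6A15, DSCAM, APOBEC3D, PTCHD1 and ATCAY) had 0 counts in all 6 silent libraries, and the median total over those 6 libraries was 9 counts. For the 68 genes with more than 3 counts there, the level with OC2 was between 14.5 and 1582 times that of the 6 libraries pooled, with a median of 130.2.

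**Figure D1:**
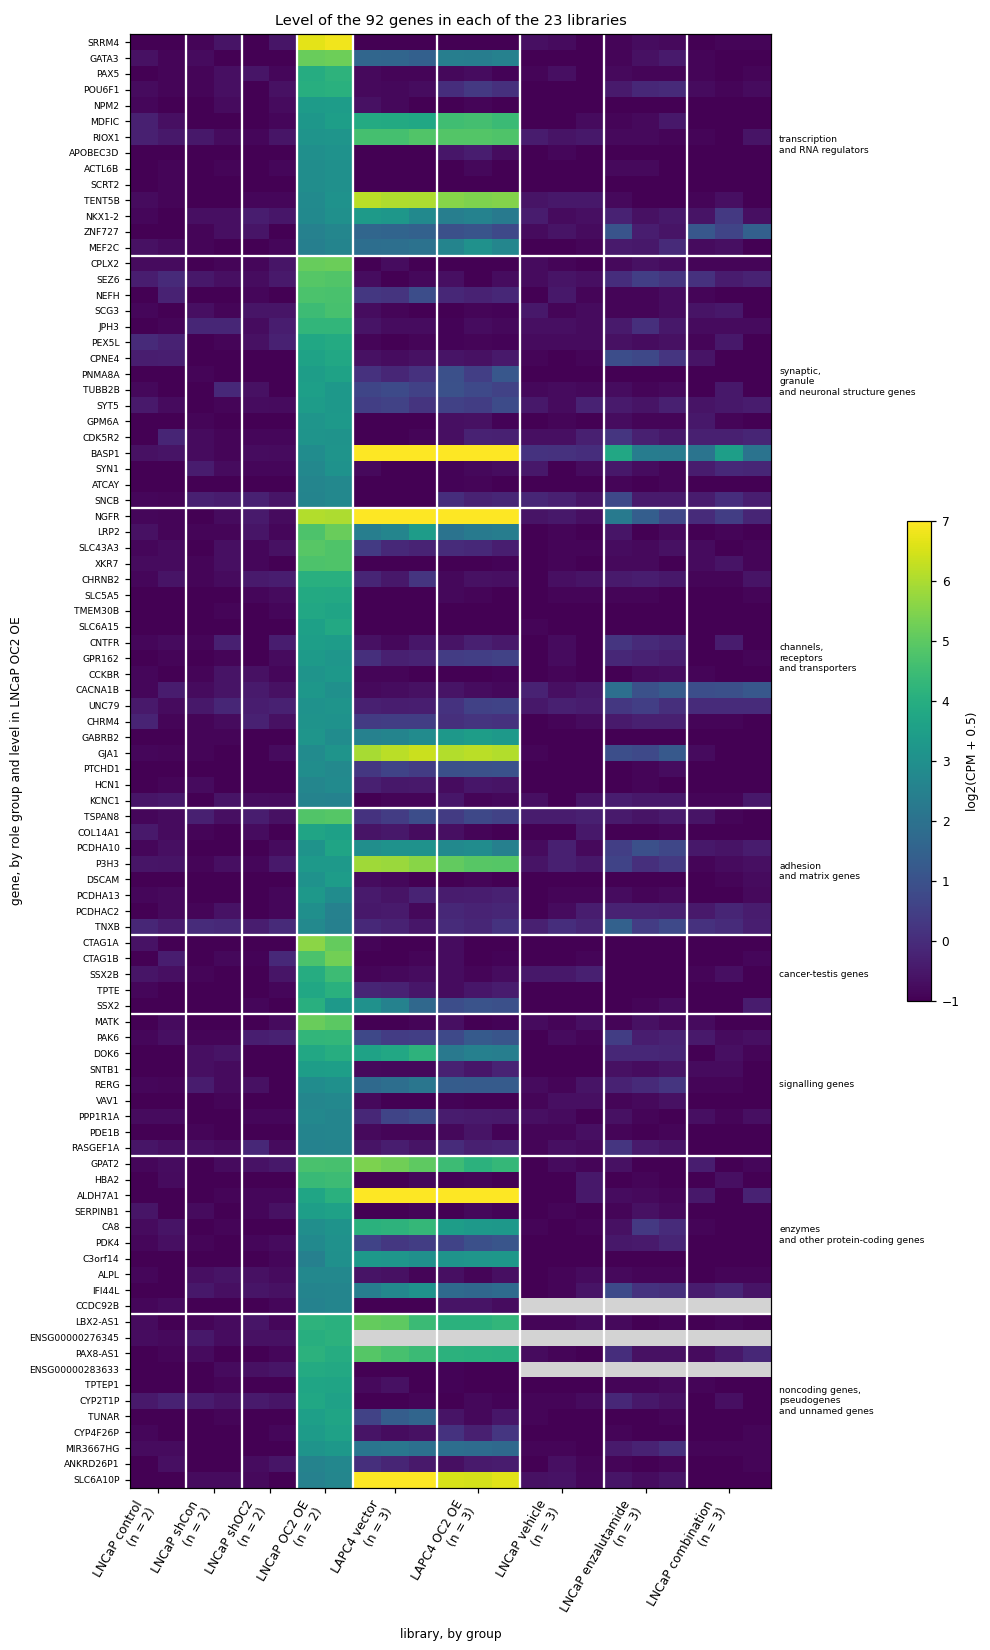
Level of each of the 92 genes (rows, by role group and by mean level with OC2) in each of the 23 libraries (columns, by group), as log2(CPM + 0.5), with grey where a table has no row. The 2 LNCaP OC2 libraries are bright in every row by the rule of choice, the 6 other LNCaP libraries of that table are dark, 35 rows are above 0.5 CPM in all 3 LAPC4 vector libraries, and few rows brighten with the drugs. The colour scale ends at 7.

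A switch of this size was counted in other directions to place it among the changes within LNCaP. From below 0.5 CPM in both control libraries to at least 5 CPM in both OC2 libraries there were 188 genes, against 37 from control to shCon, 48 from control to shOC2 and 67 from shCon to control. From shCon to shOC2 there were 19 and from shOC2 to shCon 3. In the reverse direction, 18 genes were below 0.5 CPM in both OC2 libraries and at 5 CPM or more in both control libraries. For shCon and shOC2 in place of control there were 16 and 31. No gene had at least 5 CPM in all 6 other libraries and less than 0.5 in both OC2 libraries. The control and shCon libraries, both unmodified in OC2 by label, thus differed by 37 genes in one direction and 67 in the other, and requiring silence in all 6 libraries removes genes that vary between them.

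The limits cut through a continuous range. The highest silent values inside were those of TNXB (0.487 CPM), SEZ6 (0.473) and PEX5L (0.461), and the next outside were TDRD6 (0.561), VWA5B2 (0.561) and GNB3 (0.573). The lowest values with OC2 inside were those of MEF2C (5.01 CPM), TNXB (5.07) and C3orf14 (5.14), and just outside stood DLGAP1 (4.93), RAB3C (4.92) and LINC01029 (4.87). On the LAPC4 ratio, POU6F1 (1.92), SNCB (1.85) and GATA3 (1.84) were inside, and CHGB (2.17), FAM171B (2.5) and ANKRD18B (3.22) were outside.

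Transcription and RNA regulators made up 14 of the 92 genes. SRRM4, the neuronal splicing factor, had the highest level of all. Its gene lies on chromosome 12 from 118981495 to 119163051 (hg38, plus strand) and shares exon bases with an antisense gene. It was at 0 CPM in both control libraries, 0.0443 and 0.177 in shCon, 0 and 0.187 in shOC2, and 102 and 113 with OC2. In LAPC4 it was at 0 CPM in all 6 libraries, those with OC2 included, and ONECUT2 was higher in those than in the LNCaP libraries. The LAPC4 ratio left out genes that rose there, so the absence of a large rise in LAPC4 is fixed by the choice. This holds for SRRM4 and for the genes below. SRRM4 was thus on in 2 of the 5 overexpression libraries of the series, both of LNCaP.

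GATA3, a zinc-finger factor of T cells, breast epithelium and other lineages (chromosome 10, 8045378 to 8075203), reached 35.8 and 37.3 CPM from at most 0.138. It was on in LAPC4 with the vector, at 2.59, 2.52 and 2.26 CPM, and at 4.86, 4.73 and 5.21 with OC2. PAX5, the B-cell factor, reached 14.9 and 17.7 CPM from at most 0.191 and stayed at or below 0.103 CPM in LAPC4. MEF2C, a factor of muscle and neurons, reached 5.01 and 5.64. SCRT2, a neuronal zinc-finger repressor, reached 7.06 and 7.503 CPM and was at 0 in all 6 LAPC4 libraries. ACTL6B, a subunit of the chromatin remodelling complex of neurons, reached 7.15 and 7.53 CPM and was at 0 in 5 of the 6 LAPC4 libraries. POU6F1, a POU-domain factor, reached 15.5 and 16.5 CPM. In LAPC4 it was at 0.0700, 0.0692 and 0.101 CPM with the vector and higher with OC2, at 0.525, 0.754 and 0.568. Its ratio on CPM + 0.5 was 1.92, just inside the limit.

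Synaptic, granule and neuronal structure genes were 16. CPLX2, complexin 2, which clamps and times vesicle fusion, reached 35.1 and 36.6 CPM from at most 0.187 (chromosome 5, 175796310 to 175884020). SCG3, secretogranin III, a granule sorting protein, reached 21.9 and 24.99 from at most 0.191. SYN1, synapsin I, which tethers synaptic vesicles, reached 6.17 and 7.88 from at most 0.266. All 3 had at most 0.105 CPM in any LAPC4 library. SYN1 shares exon bases with ARAF on the other strand and with another gene on its own strand, so its reads cannot be told apart from theirs where the genes overlap.

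SEZ6, a dendritic membrane protein that is also displayed on neuroendocrine tumour cells, reached 29.1 and 28.04 CPM from at most 0.473. NEFH, the heavy neurofilament, reached 25.9 and 25.5, and JPH3, a junctophilin of neurons, 18.9 and 18.9. The others of the group were PEX5L, CPNE4, PNMA8A, TUBB2B, SYT5, GPM6A, CDK5R2, BASP1, ATCAY and SNCB, with means with OC2 down to 5.82 CPM. Of the 16, 10 were below 0.5 CPM in all 6 LAPC4 libraries. BASP1, a membrane protein of growth cones, was the exception in size: it reached only 6.97 and 8.24 CPM in LNCaP and stood at 210, 225 and 216 in LAPC4 with the vector. TUBB2B has a near-identical copy, TUBB2A, so its reads may be split between them.

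Channels, receptors and transporters were the most numerous named group, with 19 genes. NGFR, the low-affinity neurotrophin receptor p75, a marker of basal prostate cells and of neural crest, reached 67.8 and 63.6 CPM from at most 0.238 (chromosome 17, 49495293 to 49515017). In LAPC4 it was high in both groups, at 214, 203 and 187 CPM with the vector and 219, 176 and 182 with OC2. LRP2, megalin, an endocytic receptor of kidney, reached 26.8 and 35.7 CPM and had 4.83, 5.71 and 10.3 in LAPC4 with the vector. SLC43A3, a purine base transporter, reached 29.7 and 27.1, and XKR7, a protein of the XK family, 26.8 and 27.3. XKR7 had 0 CPM in 5 of the 6 LAPC4 libraries.

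Neuronal channel subunits in the group were expressed at lower levels. CHRNB2, a nicotinic acetylcholine receptor subunit, reached 15.9 and 15.9 CPM. CACNA1B, the pore of the N-type calcium channel, reached 8.98 and 7.57 from at most 0.258, and KCNC1, the Kv3.1 potassium channel, 5.45 and 5.29. These 3 stayed below 0.5 CPM in LAPC4 except for CHRNB2 in 1 vector library (0.673). GABRB2, a GABA receptor subunit, reached 8.45 and 6.99 CPM in LNCaP and was already at 5.18, 5.57 and 6.80 in LAPC4 with the vector, with 9.16, 10.4 and 9.38 there with OC2. GJA1, connexin 43, a gap junction protein, reached 6.79 and 8.29 CPM in LNCaP and stood at 61.6, 71.7 and 82.3 in LAPC4 with the vector. The remaining genes of the group included SLC5A5, the iodide symporter, at 14.2 and 13.7, and SLC6A15, an amino acid transporter, at 11.2 and 13.7, a level at least 91.5-fold that of 3 counts in each silent library.

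Cancer-testis genes were 5. CTAG1A and CTAG1B, which encode the same antigen, NY-ESO-1, lie 30788 bases apart on chromosome X in opposite directions. CTAG1A was at 48.3 and 34.2 CPM and CTAG1B at 26.2 and 39.2. The near-identical copies can exchange reads, and their sum was 74.4 and 73.4 CPM, closer between the replicates than either gene alone. SSX2 and SSX2B, likewise near-identical, were at 16.1 and 9.54 CPM and at 14.9 and 22.1, with sums of 30.9 and 31.7. TPTE, a testis phosphatase-like gene, was at 13.1 and 16.4 CPM. In LAPC4 with the vector the SSX2 pair summed to 7.84, 5.43 and 2.86 CPM, while the CTAG1 pair was at or near 0.

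Signalling genes were 9. MATK, a kinase that restrains SRC-family kinases and is known from blood cells and brain, reached 35.5 and 30.9 CPM from at most 0.0935, a ratio of 1099 to the pooled silent libraries (chromosome 19, 3777970 to 3802129). PAK6, a kinase that binds the androgen receptor, reached 18.9 and 19.3. VAV1, an exchange factor of blood cells, reached 5.90 and 6.18 CPM and had at most 0.0700 CPM in LAPC4. Adhesion and matrix genes were 8. TSPAN8, a tetraspanin of gut and pancreas epithelium, reached 28.2 and 29.1 CPM from at most 0.310, and COL14A1, a fibril-associated collagen, reached 12.2 and 11.3. PCDHA10, PCDHA13 and PCDHAC2 are protocadherins of the same cluster on chromosome 5 and share their last exons, so reads can be split between them.

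Enzymes and other protein-coding genes were 10, and noncoding genes, pseudogenes and unnamed genes 11. GPAT2, an acyltransferase of testis, reached 25.8 and 24.8 CPM. HBA2, alpha globin, reached 21.1 and 22.0, with its near copy HBA1 at 3.38 and 4.11. Of 12 blood cell markers, HBA1 alone passed 1 CPM in the OC2 libraries, and PTPRC, CD3E, CD3D and MS4A1 were each at 0 in at least 1 of the 2. IFI44L, an interferon-induced gene, reached 5.54 and 5.73 CPM. LBX2-AS1 and PAX8-AS1, noncoding RNAs, reached 17.3 and 16.2 and 17.2 and 15.01 CPM. SLC6A10P is a pseudogene of a creatine transporter, and its reads may belong in part to related copies.

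Several of the genes are neighbours, which bears on how many separate loci the 92 are. Within 500000 bases of each other lay 11 pairs, among them the CTAG1 and SSX2 pairs, MATK with ATCAY (77735 bases apart) and COL14A1 with SNTB1 (163709). P3H3 and GPR162, and PPP1R1A and PDE1B, overlap. In all, 39 of the 92 share exon bases with some other annotated gene, 16 on the same strand and 30 on the other. The counter's use of strand is not given in the sources used here.

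Per kilobase of exon, the level with OC2 was highest for CTAG1A (41.5 CPM per kilobase), CTAG1B (32.8), HBA2 (26.0), an unnamed gene on an unplaced scaffold, ENSG00000276345 (22.4), NGFR (15.8), SRRM4 (12.1), TSPAN8 (11.4) and GATA3 (10.6). SRRM4, first by CPM, has 8851 bases of exon, and CTAG1A has 993, which sets this order apart from that by CPM.

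Luminal identity was checked beside these levels. All 14 luminal prostate markers were at 1 CPM or more in every library, and their sum was 8040 and 7977 CPM in control and 5271 and 5167 with OC2. Of 10 basal markers, 1 was above 1 CPM in the OC2 libraries. The summed basal level there was 68.8 and 64.3 CPM against 3.74 and 5.801 in control. NGFR, chosen here for its rise, made up 67.8 and 63.6 CPM of it with OC2 and 0.0461 and 0.0430 in control. The other basal markers together were thus lower with OC2 than in control. TP63, KRT5, KRT17 and KRT6A were each at 0 in at least 1 of the 2 OC2 libraries. Endothelial markers summed to 4.60 and 4.26 CPM against 4.89 and 4.42. Fibroblast and smooth muscle markers summed to 21.8 and 21.9 CPM against 29.01 and 27.8.

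LAPC4 gave a view of the genes in a line that was not used to judge their silence. Of the 91 with a row, 35 (38.5%) had at least 0.5 CPM in all 3 vector libraries, 45 were below 0.5 in all 6 LAPC4 libraries, and 11 were mixed. Of all genes silent in the 6 LNCaP libraries and with a LAPC4 row, 2.36% of 40098 had at least 0.5 CPM in all 3 vector libraries. Of the 25 genes removed by the LAPC4 ratio, 6 (24.0%) did. The ratio favours genes that are already on in LAPC4 and leaves out those that rise there, so the 38.5% and the 45 are not independent of the choice.

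Among the 35, 18 had at least 5 CPM in all 3 vector libraries, and 16 genes had a higher mean in LAPC4 with the vector than in LNCaP with OC2. The highest were SLC6A10P at 382, 336 and 223 CPM, ALDH7A1, an aldehyde dehydrogenase of lysine breakdown, at 244, 258 and 251, BASP1 and NGFR as given above, and GJA1. ALDH7A1 in LNCaP reached 12.5 and 16.4 CPM with OC2. P3H3, a collagen prolyl hydroxylase, stood at 58.1, 55.4 and 47.3 CPM in LAPC4 with the vector and at 9.61 and 9.27 in LNCaP with OC2. By role, 7 of 14 transcription and RNA regulators, 6 of 19 channels, receptors and transporters, 4 of 16 synaptic and neuronal structure genes and 1 of 5 cancer-testis genes were on in LAPC4 with the vector.

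Within LAPC4, all 3 OC2 libraries lay below all 3 vector libraries for 20 of the 35, above them for 7 (GATA3, PAK6, MDFIC, GABRB2, PDK4, PTCHD1 and MEF2C), and overlapped for 8. The rule left out genes whose CPM + 0.5 rose by 2-fold or more here, so no test was made. Of the 946 genes silent in LNCaP and on in LAPC4 with the vector, 51.9% had all OC2 libraries below all vector libraries, beside 57.1% of the 35. Among the 20 were SLC6A10P, which had 90.3, 88.8 and 99.0 CPM with OC2, P3H3, with 33.6, 29.6 and 29.5, and SSX2, with 7.80, 5.36 and 2.76 CPM in the vector and 1.35, 1.58 and 1.44 with OC2. Summed over the genes, the vector libraries held between 1306 and 1494 CPM and the OC2 libraries between 999.9 and 1062.

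**Figure D2:**
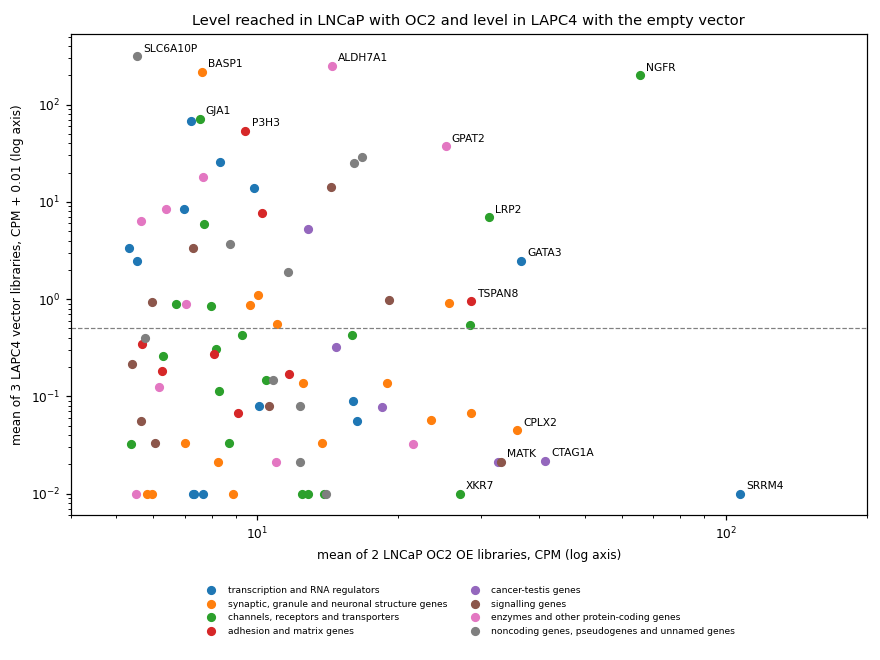
Mean of the 2 LNCaP OC2 libraries (horizontal axis, CPM, log) against the mean of the 3 LAPC4 vector libraries plus 0.01 (vertical axis, CPM, log) for the 91 genes with a LAPC4 row, coloured by role group, with the 0.5 CPM limit dashed. SRRM4 lies at the right edge with 0 CPM in LAPC4, while NGFR is high on both axes and BASP1, ALDH7A1 and SLC6A10P are far higher in LAPC4 than in LNCaP with OC2.

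The drug experiment took no part in the choice of the genes and was tested. It asked whether these genes move when the androgen receptor is blocked with enzalutamide, an antagonist of that receptor, and whether an OC2 inhibitor given with it changes that. Of the 92 genes, 89 had a row, 85 by their current name and 4 by an older one. In vehicle, 87 of the 89 were below 0.5 CPM in all 3 libraries and 21 were at 0 in all 3, so the genes were near 0 in this separately handled set of LNCaP libraries too. BASP1 alone was at 0.5 CPM or more in all 3, with a mean of 0.587 CPM.

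Of the 89, 66 were below 0.5 CPM in all 9 libraries, and 1, BASP1, reached 5 CPM in any. SRRM4 had at most 0.133 CPM in any of the 9 libraries. Summed over the genes, vehicle held 6.22, 7.14 and 7.59 CPM, enzalutamide 44.7, 25.7 and 25.4, and the combination 14.1, 21.5 and 14.3. The 3 arms did not overlap, the first enzalutamide library and the second combination library were the highest of their arms, and all values were far below the 1314 and 1360 CPM with OC2.

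**Figure D3:**
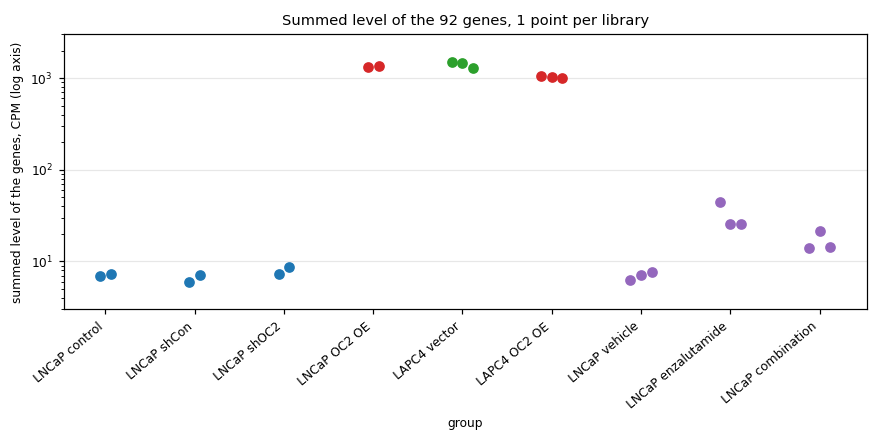
Summed level of the 92 genes in each library (1 point per library, vertical axis in CPM, log) for the 9 groups, with LNCaP control and hairpin groups in blue, OC2 overexpression in red, LAPC4 vector in green and the drug arms in purple. 91 genes have a LAPC4 row and 89 a row in the drug table. The 6 silent libraries lie between 5.93 and 8.58 CPM, enzalutamide libraries between 25.4 and 44.7, and the 2 LNCaP OC2 libraries at 1314 and 1360.

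ONECUT2 itself was at 15.4, 15.01 and 12.8 CPM in vehicle, 24.5, 34.5 and 30.6 with enzalutamide and 13.2, 15.2 and 12.8 with the combination. It was higher with enzalutamide than with vehicle (log2 fold change 0.71, SE 0.15, edgeR adjusted p = 0.00139) and lower with the combination than with enzalutamide (-0.86, SE 0.15, edgeR adjusted p = 0.000528). Between combination and vehicle the change was -0.15 (SE 0.15, edgeR adjusted p = 0.44).

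Of the 87 genes silent in vehicle, 9 (10.3%) had at least 0.5 CPM in all 3 enzalutamide libraries, and 3.01% of the 38619 genes silent in vehicle did so. In the combination 2 (2.30%) did, beside 0.671%. The 87 were chosen for reaching 5 CPM in LNCaP with OC2 and the 38619 were not. The 2 sets are thus unlike, and the difference between their shares was not tested. The 9 were NGFR, SEZ6, CPNE4, PCDHA10, P3H3, CACNA1B, UNC79, GJA1 and IFI44L, and the 2 were CACNA1B and ZNF727.

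Of the 89 genes, 12 passed the filter on low counts for edgeR, and they passed mainly through the arms in which they were higher. Their number and direction are thus no measure of the 92, and their p-values are not independent of their entry to the test. Against vehicle, 11 of the 12 were called higher with enzalutamide and 0 lower, where 70.3% of all 17439 genes tested were called, 34.7% higher and 35.6% lower. The enzalutamide values were deposited as whole counts and the other 6 libraries as estimated counts, and no label names the counter of either. This difference coincides with the arm, and its part in these results was not tested. Combination and vehicle were both deposited as estimated counts, but the enzalutamide libraries enter the spread and the filter of that comparison too, since the 3 arms were fitted together: with only the 2 arms fitted, 3 of the 5 genes tested were called, where 58.7% of 16013 genes were.

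GJA1 had 1.40, 1.204 and 1.84 CPM with enzalutamide, 0.0442, 0 and 0 in vehicle and 0.0875, 0 and 0 in the combination. The enzalutamide libraries lay above all others. Vehicle held 1 count in all, and the ratio of enzalutamide to vehicle was 101 with an exact 95% counting interval from 17.8 to 4019 (edgeR adjusted p = 6.74e-05). Against the combination, which held 2 counts, the ratio was 50.8, from 13.8 to 424 (edgeR adjusted p = 0.00011). CPNE4, a copine, a calcium-dependent membrane-binding protein of brain, had 1.36, 1.17 and 0.673 CPM with enzalutamide, 4 counts in all in the combination and 2 in vehicle. Its ratio of enzalutamide to vehicle was 36.4, from 9.77 to 305 (edgeR adjusted p = 0.000754). CPNE4 was lower in the combination than with enzalutamide by a log2 fold change of -3.83 (SE 0.76, edgeR adjusted p = 0.00147). Both GJA1 and CPNE4 passed the filter on low counts through the enzalutamide libraries alone, so these p-values are not independent of their entry to the test.

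NGFR had 0.177, 0.219 and 0.132 CPM in vehicle, 4.40, 2.13 and 1.13 with enzalutamide and 0.481, 0.876 and 0.392 in the combination. It was higher with enzalutamide (log2 fold change 3.47, SE 0.59, edgeR adjusted p = 0.000397) and lower in the combination than with enzalutamide (-1.85, SE 0.49, edgeR adjusted p = 0.00784). The combination lay above vehicle in every library, by 1.62 (SE 0.66), which was not called (edgeR adjusted p = 0.068). That call is made when the first (edgeR adjusted p = 0.019) or the third (0.032) enzalutamide library is left out.

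BASP1 was the highest of the genes in this experiment. It had 0.619, 0.614 and 0.527 CPM in vehicle, 13.5, 4.61 and 4.53 with enzalutamide and 3.72, 10.6 and 3.62 in the combination. It was higher than vehicle in both arms, by 3.32 (SE 0.61, edgeR adjusted p = 0.000692) and 3.26 (SE 0.62, edgeR adjusted p = 0.00181) on the log2 scale. The 2 treated arms overlapped (-0.06, SE 0.49, edgeR adjusted p = 0.92), and 1 library in each was more than 2-fold above the other 2. CACNA1B had 0.354, 0.132 and 0.220 CPM in vehicle, 3.29, 1.49 and 1.95 with enzalutamide and 1.40, 1.45 and 1.74 in the combination. It was higher than vehicle in both arms, by 2.88 (SE 0.41, edgeR adjusted p = 0.000127) and 2.60 (SE 0.43, edgeR adjusted p = 0.000802).

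ZNF727, a zinc-finger gene, was the single gene of the 12 with its highest mean in the combination. It had 0.0885, 0.176 and 0.0879 CPM in vehicle, 1.61, 0.283 and 0.177 with enzalutamide and 1.75, 1.05 and 2.27 in the combination. The combination was higher than vehicle by 3.71 (SE 0.85, edgeR adjusted p = 0.00502). Against enzalutamide it was higher by 1.56 (SE 0.64) and not called (edgeR adjusted p = 0.056), and without the first enzalutamide library, the high one, the difference was 3.09 (edgeR adjusted p = 0.00013). SEZ6 was called higher in the combination than in vehicle (1.51, SE 0.51, edgeR adjusted p = 0.032), and that call was lost without any 1 of the 3 vehicle libraries (edgeR adjusted p from 0.050 to 0.11), without the first (0.14) or the third (0.052) combination library and with DESeq2 (0.091).

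In all, 4 of the 12 were called higher in the combination than in vehicle (ZNF727, BASP1, CACNA1B and SEZ6) and 0 lower, where 46.8% of all genes were called, 23.2% higher and 23.6% lower. Between the treated arms, 6 were called lower in the combination (GJA1, CPNE4, P3H3, PCDHA10, NGFR and TNXB) and 0 higher, where 61.9% of all genes were called, 30.4% lower and 31.4% higher. P3H3 had 1.04, 0.567 and 0.744 CPM with enzalutamide and 0.0438, 0.0876 and 0.131 in the combination (-2.83, SE 0.47, edgeR adjusted p = 0.000463). PCDHA10 had 0.895, 1.42 and 1.13 CPM with enzalutamide and 0.214, 0.175 and 0.261 in the combination (-2.11, SE 0.44, edgeR adjusted p = 0.0018). TNXB was called by a narrow margin (-1.36, SE 0.43, edgeR adjusted p = 0.018), and the call was lost without the first enzalutamide library (0.060) or the third combination library (0.073). Among the smaller rises with enzalutamide, those of P3H3 (edgeR adjusted p = 0.052), TNXB (0.051) and UNC79 (0.057) were not called without the first vehicle library. Enzalutamide against vehicle and combination against enzalutamide share the enzalutamide libraries, so the 2 sets of calls are not independent.

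**Figure D4:**
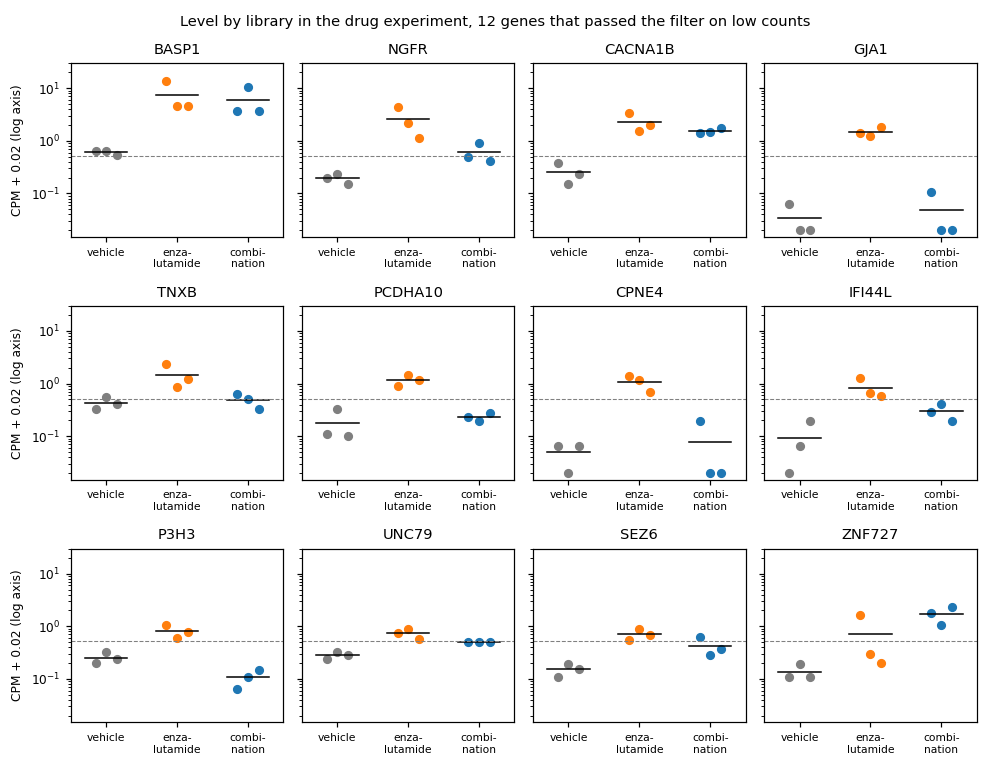
Level of the 12 genes that passed the filter on low counts in the drug experiment, as CPM + 0.02 on a log axis, with 1 point per library (3 per arm), the mean as a bar and the 0.5 CPM limit dashed. GJA1 and CPNE4 are above the limit only with enzalutamide, BASP1 and CACNA1B in both treated arms, and ZNF727 in all 3 combination libraries and 1 enzalutamide library.

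The 92 genes were then set beside other genes of like function from 10 lists. On these lists 607 genes were not among the 92, and 305 of them were tested in LNCaP with OC2 against control, where 60.8% of the 17046 genes tested were called, 31.6% higher and 29.3% lower. Of the 305, 160 were called higher and 83 lower. The median log2 fold change was 0.89, against 0.02 over all genes tested. Genes near 0 in control entered when they were expressed with OC2, which favours rises, and genes near 0 with OC2 entered through control. Genes left out of the 92 by the LAPC4 ratio alone are still counted, although the LNCaP limits fix their rise. In the granule, neuronal channel, matrix and interferon lists, 5, 4, 2 and 2 genes met the LNCaP limits, beside 3, 3, 1 and 1 among the 92. The lists were also chosen with earlier results of these data known, so these counts are no independent support.

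Of granule and synaptic vesicle genes outside the 92, 15 of 20 tested were called higher and 3 lower. SV2A and CHGB are among the 15, although the LNCaP limits fix their rise. SV2A, a vesicle glycoprotein, went from 0 CPM in both control libraries to 12.96 and 12.6, and CHGB, chromogranin B, from 0 to 10.2 and 12.7. Both met the LNCaP limits, so these values are description, and were left out of the 92 for their LAPC4 ratio: SV2A had a mean of 0.263 CPM with the vector and 18.3 with OC2 there. RAB3C, a vesicle GTPase, was at 4.92 and 6.495 CPM with OC2 and missed the 5 CPM limit in 1 library.

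Neural RNA-binding and splicing genes were called higher for 10 of 14 tested and lower for 2. MSI1, an RNA-binding protein of stem cells, was at 0.0461 and 0.0430 CPM in control and 17.4 and 17.7 with OC2 (edgeR adjusted p = 1.07e-08), but it had 16.6 and 12.5 CPM in shCon, close to the level with OC2. Neuronal channels, receptors and adhesion genes were called higher for 27 of 40 and lower for 8. C1QL4, a secreted synaptic organizer, stood at 949 and 929 CPM with OC2 and 0.138 and 0.172 in control (edgeR adjusted p = 4.80e-11), and it was not among the 92, with up to 1.90 CPM in shCon, up to 1.31 in shOC2 and LAPC4 means of 0.196 with the vector and 1.77 with OC2. Developmental transcription factors were called higher for 38 of 73 and lower for 19. TWIST1, called higher against control (39.0 and 39.3 CPM from 0.138 and 0.129), again had 12.4 and 11.5 CPM in shCon. MSI1, C1QL4 and TWIST1 passed the filter on low counts through the OC2 libraries alone, so their calls and p-values are not independent of their entry to the test.

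The remaining lists differed in direction. Cancer-testis genes outside the 92 were called higher for 6 of 24 tested and lower for 13. MAGEA4 stood at 65.9 and 63.5 CPM from 0 in both control libraries (edgeR adjusted p = 3.30e-09). It passed the filter on low counts through the OC2 libraries alone, so its p-value is not independent of its entry to the test. Hepatic, pancreatic and intestinal genes, none of them among the 92, were called higher for 2 of 15 and lower for 10. The largest change was that of PRSS1, a trypsinogen, from 11.9 and 9.50 CPM to 0 in both OC2 libraries (edgeR adjusted p = 4.60e-07). But PRSS1 was at 0.709 and 0.354 CPM in shCon, and it passed the filter through the control libraries alone. Glucuronidation and steroid enzymes, also outside the 92, were called higher for 10 of 12 and lower for 0, and UGT2B11 went from 1.11 and 1.89 to 306 and 322 CPM (edgeR adjusted p = 7.15e-10). Matrix and adhesion genes were called higher for 22 of 37 and lower for 8, ligands and receptors for 25 and 15 of 51, and interferon and innate immune genes for 5 and 5 of 19.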

How the data were processed

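FastQC 0.9.0, Bowtie2 and the build hg38 are named in the submitters' processing notes. No source used here gives the counter or the annotation release. The authors deposited read counts per Ensembl gene for LAPC4 and for the enzalutamide libraries (by symbol), and estimated counts, which need not be whole, for the other LNCaP libraries. Estimated counts were rounded to whole numbers for tests. CPM here is on library totals: 20964025 to 23272088 counts in the LNCaP table, 28586064 to 30465978 in LAPC4, 22615580 to 28241076 in the drug table, where 1105 repeated symbol lines were summed. Tests used edgeR 4.0.16 (TMM, filterByExpr, quasi-likelihood F-test, Benjamini-Hochberg over all genes tested, threshold 0.05). The 3 drug arms were fitted together, and LNCaP with OC2 was fitted with control alone. The procedure was tested on simulated counts for combination against vehicle (17439 genes), with 64.0% of 2-fold and 84.0% of 4-fold changes recovered. Only 100 genes were changed at each fold there, around means pooled over the arms, whereas 46.8% of genes were called in the data. These shares thus do not describe genes near 0 in vehicle. Counting intervals are exact (Clopper-Pearson, 95%). Bounds use 3 counts per library, and both cover counting error only. Gene positions are from GENCODE 29.

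The genes, role groups and lists were chosen with earlier results of these data known. Named genes were ONECUT2, the 12 of the 92 highest with OC2, up to 4 of the 92 per list, the 5 highest in LAPC4 vector and in vehicle, up to 6 per direction called in each drug comparison, the 3 nearest each limit, and outside the 92 up to 3 called genes per list with the largest change. Other genes were named after their values were seen, to describe the role groups. Alternatives are in the closing section: DESeq2 1.42.0, filters, other limits, libraries left out and a replicate block.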

Additional observations from a re-analysis of the deposited data

How the results depend on the processing

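The number of genes depends on the limits: 60 at a silent limit of 0.2 CPM, 197 at an overexpression minimum of 2 CPM and 44 at 10 CPM, beside 92. It was 121 at a silent limit of 1 CPM, 117 with no LAPC4 exclusion, 81 at a LAPC4 ratio of 1.5 and 97 on TMM-scaled library sizes, and 92 to 101 with any 1 LNCaP library left out. Genes at the limit in all vehicle libraries were 5 at 0.2 CPM and 0 at 1 CPM, beside 1 at 0.5 CPM, and 1 with any single vehicle library left out. For LAPC4 vector libraries these were 45 and 26, beside 35, and 35 to 36 without 1 library.

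In the drug experiment the counts follow the filter on low counts. For enzalutamide against vehicle, edgeR called 11 of 12 genes tested (70.3% of all genes), and DESeq2 called 21 of the 55 with an adjusted p (57.3% of all), 19 of them higher. With no filter it was 27 of 81 (39.8% of all), 25 higher and 2 lower (SSX2B and TENT5B). At 1 CPM or more in 3 libraries it was 4 of 5 (72.3%). Without 1 library it was 10 to 14, where 63.1% to 73.2% of all genes were called. For combination against enzalutamide, edgeR called 6 of 12 (61.9% of all genes) and DESeq2 13 of 60 (48.5%). edgeR with no filter called 17 of 81 (34.7%), and at 1 CPM 2 of 5 (64.0%). Without 1 library 6 to 9 were called, where 54.5% to 68.8% of all genes were. For combination against vehicle, 4 were called (46.8% of all genes) and 3 to 5 under every alternative. The share of all genes called moved from 22.5% (no filter) to 58.7% (only the 2 arms fitted) over these alternatives. With the replicate block 3 were called (58.5% of all). The numbers do not pair the libraries: the deviations of vehicle and combination libraries of the same number correlated at 0.0248, 0.115 and 0.0559. The calls on fixed-list genes in LNCaP ran from 225 (DESeq2) to 253 (no filter), beside 243. There were 240 under the replicate block, 248 against shCon and 229 to 241 without 1 library. In the same order, 39.2%, 31.0%, 60.8%, 66.0%, 64.0% and 47.7% to 51.9% of all genes were called.

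Of 444 alternative values of single genes in the drug comparisons, 411 kept direction and side of the threshold, 15 lost the call, 10 gained it and 8 reversed, none of these 8 called in either fit. Against vehicle, the 3 that reversed ranged, with 1 library left out, from -2.92 to 1.37 (CPNE4), from -2.10 to 2.85 (GJA1) and from -0.14 to 0.33 (TNXB, -0.07 without the first vehicle library), each lowest without the first combination library. Against enzalutamide, BASP1 ranged from -0.76 to 0.64 and CACNA1B from -0.5 to 0.079, each highest without the first enzalutamide library, and BASP1 was also above 0 without the combination library of number 1 (0.21) or 3 (0.22). The cause was not tested. The share of promoters with ATTGAT or ATCGAT was 0% in both windows. At this depth most of the 89 genes had too few counts in the drug libraries to be tested.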
